A study of Paspalum vaginatum with 72 samples.

Results

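Roots of 2 accessions of seashore paspalum (Paspalum vaginatum), a halophytic turfgrass, were compared at the labelled 12 h of salt. The tolerant accession is USA17-18 and the sensitive accession is USA17-26, and each was measured in 3 libraries, which makes 6 of the 72 libraries of the series. All 6 are labelled root, salt and 12 h, and the series text gives the treatment as 400 mM NaCl. The 6 root libraries labelled CK at time 0, 3 of each accession with no NaCl, were used to separate differences that the accessions already carried from those seen at 12 h. The other 24 root libraries, from 8 h, 24 h, 48 h and 5 days of salt, and 12 leaf libraries from time 0 and 12 h served as further readings of the same genes.

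Each accession is 1 genotype, so every difference between USA17-18 and USA17-26 is a difference between 2 plant lines and cannot be assigned to their tolerance. The methods describe pooled hydroponic plants, a stepwise daily rise of NaCl and collection on the fifth day, whereas the labels give hours. The sources used here do not give the hour of the day at which roots were taken, so salt and time of day cannot be told apart between time 0 and 12 h. Nothing in the labels says which containers the 3 libraries of a group came from, and p-values measure the spread between these libraries. Values are FPKM, that is fragments counted on a gene, scaled by the gene's length and by the library's mapped fragments, and differences are tolerant minus sensitive on the scale log2(FPKM + 1).

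In saline water a root meets a shortage of water and an excess of sodium together. Sodium is carried out of the cytosol by sodium/proton exchangers and taken back from the xylem by HKT carriers, while late embryogenesis abundant (LEA) proteins and dehydrins accumulate in cells that lose water, largely under abscisic acid. Nitrate enters through the NRT2 and NPF carriers, water crosses the vacuole through TIP aquaporins, and expansins and class III peroxidases loosen and stiffen the wall of growing cells. Bulk RNA cannot tell fewer cells of a type from less RNA per cell.

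The tissue label held: 18 leaf marker genes summed to 5.29 to 37.7 FPKM in the 12 root libraries of both times and to 1411 to 51669 FPKM in the leaf libraries. The 20 root markers summed to 1573 to 10033 FPKM in these roots against 113 to 520 FPKM in leaves. Most of that root sum came from nitrate carriers. Without them the root markers summed to 306 to 592 FPKM in these roots, and no such sum was made for leaves. The 12 libraries summed to between 692611 and 715660 FPKM, and between 18346 and 19500 genes had 1 FPKM or more. The number of reads is unknown, but the steps between low values of 125 genes put the relative depth between 0.723 and 1.01 at time 0 and between 0.930 and 1.08 at 12 h. No 2 libraries were identical.

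One library stood apart, tolerant 12 h replicate 1. Its correlation across genes, on the log2 scale, was 0.957 and 0.943 with its own replicates 2 and 3, which correlated at 0.989 with each other. With sensitive 12 h replicates 1, 2 and 3 its correlation was 0.934, 0.971 and 0.949. The sensitive 12 h replicates correlated at 0.952 to 0.974 with each other. Panels of accession-type genes were drawn from roots at 8, 24 and 48 h, with a median of 5 FPKM or more in one accession and of 0.1 FPKM or less in the other. Over the 31 tolerant-type genes, replicate 1 had a median of 1.37 FPKM and 16 genes at 1 FPKM or more, where replicates 2 and 3 had medians of 9.82 and 11.4 FPKM and all 31. Of 13 sensitive-type genes, 7 were at 2.33 to 28.67 FPKM in replicate 1, or 40.1% to 101% of the sensitive 12 h mean, and the other 6 were at 0.12 FPKM or less. Over those 7 genes the medians of replicates 2 and 3 were 0.170 and 0 FPKM. Values of the library labelled tolerant 12 h replicate 1 were thus unlike both groups, and results are given with it and, where the call or size moves, without it.

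**Figure D1:**
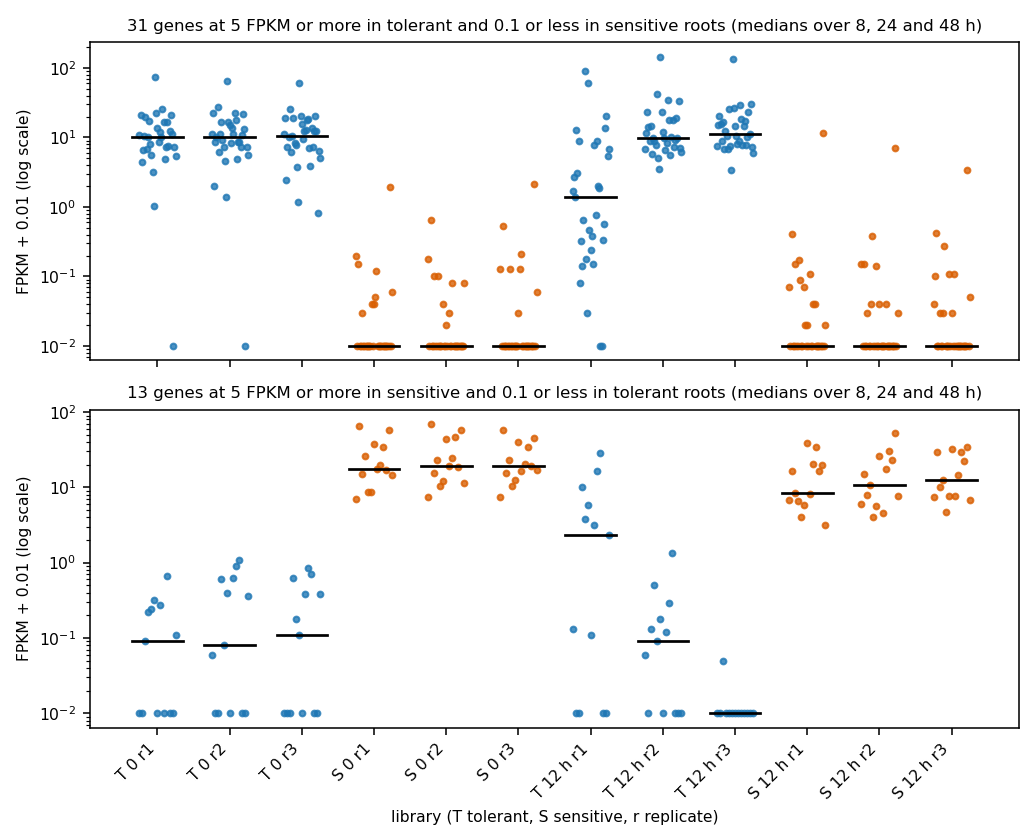
FPKM + 0.01 (log scale) of the tolerant-type genes (top) and the sensitive-type genes (bottom) in each of the 12 root libraries, 1 point a gene, with bars at the median. Tolerant 12 h replicate 1 has a median of 1.37 FPKM over the 31 tolerant-type genes, where the other tolerant libraries have 9.82 to 11.4 FPKM, and 7 of 13 sensitive-type genes are at 1 FPKM or more in it.

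At 12 h the 2 accessions differed at few genes, and most of these differences were already there at time 0. A gene was called a DEG where its adjusted p did not exceed 0.05 and its log2 difference was at least 1.5 in size. At 12 h 150 of 20976 genes were DEGs (0.715%), 82 higher (0.391%) and 68 lower (0.324%) in the tolerant root. All 150 had tolerant and sensitive libraries that did not overlap, which the rule that called them largely sets. The share of all genes without overlap was not counted. At time 0 the same rule called 870 genes (4.15%), 495 higher (2.36%) and 375 lower (1.79%). Without tolerant 12 h replicate 1, 401 of 20910 genes were DEGs at 12 h (1.92%), 214 higher (1.02%) and 187 lower (0.894%), and 139 of the 150 were among them. The median SD of a gene over its libraries on the log2 scale was 0.133 and 0.124 in the tolerant and sensitive root at time 0 and 0.263 and 0.286 at 12 h, falling to 0.110 in the tolerant root without replicate 1. The fit gave each gene 1 spread shared by the 4 groups, and the SEs below come from it. With the 6 libraries of each time fitted alone, 47 genes were DEGs at 12 h and 1115 at time 0.

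The 150 genes were sorted by whether the difference itself had changed from time 0 to 12 h, tested in the same fit as the 12 h difference minus the time 0 difference. That change was called at 157 genes (0.748%), 42 toward the tolerant root and 115 away from it. Of the 150, 98 were DEGs in the same direction at time 0 (59 higher, 39 lower). A further 7 were not DEGs at time 0 and had a called change in the 12 h direction (2 higher, 5 lower), which makes them the genes seen only at 12 h. For 44 (21 higher, 23 lower) neither test settled the matter, since they were not DEGs at time 0 and their change was not called. One gene was a DEG in opposite directions at the 2 times. Without tolerant 12 h replicate 1 these numbers were 253, 16, 131 and 1.

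**Figure D2:**
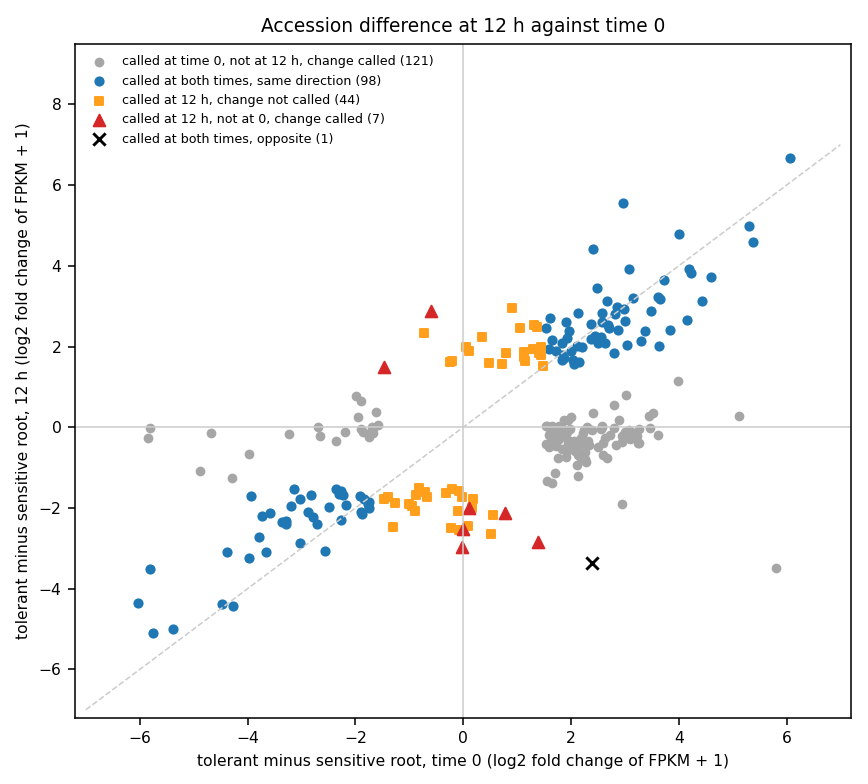
Tolerant minus sensitive difference in log2(FPKM + 1) at 12 h against the same difference at time 0, for the 150 DEGs at 12 h, coloured by their class, and in grey for the 121 genes that were DEGs at time 0, were not at 12 h and had a called change. The 98 genes that were DEGs at both times lie along the diagonal and the 7 genes seen only at 12 h lie off it.

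Among the 98 genes that differed at both times, the median size of the difference was 2.80 at time 0 and 2.38 at 12 h on the log2 scale, and 67 of the 98 were larger at time 0. The 2 differences correlated at 0.97 across these genes, which the requirement of a call at both times helps to set. Of the 98, 60 were called at both times whichever single library was left out. At most 0.1 FPKM in all 6 sensitive libraries was listed for 18 of them and at most 0.1 FPKM in all 6 tolerant libraries for 5, or 8 without tolerant 12 h replicate 1. Of the 150 DEGs at 12 h, 19 (12.7%) were on scaffolds outside the chromosomes, against 642 of all genes tested (3.06%). Another DEG of the same direction lay within 100000 bases of 50 of the 150. No like count was made for other genes, so whether 50 is many was not tested.

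Genes higher in the tolerant root at both times had varied roles. The match to stress-associated endoplasmic reticulum protein 2 (emOS65.49, chromosome 5, 9576434 to 9577943), a small membrane protein of the secretory pathway, had 49.6, 46.35 and 44.07 FPKM in the tolerant and 0.28, 0.82 and 0.45 FPKM in the sensitive root at 12 h. Its difference was 4.99 ± 0.16 (SE, n = 3 a group, adjusted p = 1.03e-07) at 12 h and 5.31 ± 0.16 at time 0, and every tolerant library was above every sensitive one at both times. A zinc-binding alcohol dehydrogenase domain gene (emOS55.372) had 8.97, 17.86 and 18.29 FPKM in the tolerant root and at most 0.03 FPKM in the sensitive root at 12 h (3.91 ± 0.23, adjusted p = 6.12e-06), and 17.7 ± 0.954 (SD) against 0.0233 ± 0.0404 FPKM at time 0. The WAT1-related gene emOS80.104, of a family whose Arabidopsis founder carries auxin out of the vacuole, had 7.05, 20.89 and 23.12 FPKM against 2.13, 0.44 and 0.24 FPKM (3.19 ± 0.45, adjusted p = 0.00419), with replicate 1 lowest among the tolerant libraries. DMC1 (emOS169.318), a recombinase of meiosis, had 22.55, 30.64 and 34.69 FPKM in the tolerant root and 4.55, 0.82 and 2.39 FPKM in the sensitive root at 12 h. The DMC1 difference was 3.20 ± 0.33 at 12 h and 3.16 ± 0.33 at time 0.

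Genes lower in the tolerant root at both times included a whole enzyme gene with almost no RNA in that accession. The alpha chain of tryptophan synthase (emFS5.416, chromosome 6, 40688744 to 40693426), which releases indole on the way to tryptophan, was at 38.98, 26.21 and 32.56 FPKM in the sensitive root at 12 h and listed at 0.1, 0 and 0 FPKM in the tolerant root (adjusted p = 1.03e-07). At time 0 the same gene had 40.8 ± 3.31 FPKM (SD) in the sensitive root and 0 in all 3 tolerant libraries. NPF6.3 (emOS184.18, chromosome 7, 5385475 to 5392434), in Arabidopsis a nitrate carrier and sensor, had 1.49, 1.7 and 3.26 FPKM in the tolerant and 26.32, 15.0 and 36.63 FPKM in the sensitive root (-3.06 ± 0.32, adjusted p = 5.79e-04), after -2.57 ± 0.32 at time 0. The auxin response factor 25 match (emFS12.694), a transcription factor of auxin signalling, had 1.68, 1.31 and 0.5 FPKM against 7.92, 3.54 and 4.47 FPKM (-1.53 ± 0.29, adjusted p = 0.0235). IAA21 (emOS76.34), a repressor of the same pathway, lay the other way at 1.47, 4.31 and 10.56 FPKM against 0.57, 0.17 and 0.23 FPKM (2.02 ± 0.46, adjusted p = 0.0486), and its call at 12 h held in 1 of the 12 fits that left out a library, the one without tolerant 12 h replicate 1.

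For 3 genes of this kind the values in tolerant 12 h replicate 1 were those of neither group. A U-box domain gene (emFS27.216), of a family of ubiquitin ligases, was listed at 4.21, 0 and 0 FPKM in the tolerant and at 14.13, 11.26 and 16.44 FPKM in the sensitive root. The F-box gene emOS120.65 had 5.14, 0.18 and 0.06 FPKM against 10.51, 7.5 and 9.6 FPKM. The match to a substrate of MAP kinase kinases (emFS1.191) had 6.46, 1.81 and 0.76 FPKM against 11.88, 22.83 and 16.28 FPKM. Their differences at 12 h were -3.09, -2.36 and -2.39, and -3.89, -3.18 and -2.97 without that library.

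Disease resistance proteins, the intracellular receptors of pathogen effectors, formed the list with the most DEGs at 12 h by count. It was also the largest of the lists that held a DEG then, and smaller lists had larger shares called. Of 193 genes tested 6 were called, 1 higher and 5 lower, against 0.715% of all genes, and at time 0 there were 4 higher and 9 lower. In the fit without tolerant 12 h replicate 1 there were 4 higher and 9 lower at 12 h, against 1.02% and 0.894% of all genes. In 9 of the other 11 fits that left out a library 1 was higher and 3 lower. The list's median difference was -0.08 at 12 h against 0.00 over all genes. An RPM1 match (emOS94.64) had 5.45, 7.11 and 7.27 FPKM in the tolerant root and was listed at 0 in all 6 sensitive libraries (adjusted p = 1.17e-06). Neighbouring genes on chromosome 4 lay the other way: emOS144.674, an RGA4 match, had 0, 0.04 and 0 FPKM against 3.66, 2.78 and 4.02 FPKM (-2.14 ± 0.15, adjusted p = 2.15e-05), and emOS144.673 was listed at 0 in the tolerant libraries against 3.01, 2.96 and 3.11 FPKM. A further gene named RPM1 (emOS108.42, chromosome 5), whose best protein match differed from that of emOS94.64, was also lower. It had 3.18, 0.11 and 0 FPKM against 8.18, 4.6 and 7.66 FPKM. Summed, the RPM1 genes had a log2 ratio of 0.19 at 12 h and -1.16 at time 0. Disease resistance genes belong to large families, and reads of near-identical copies may have been split between them. Histone H2A (emFS27.679), a core protein of chromatin, was the one cell division gene of 99 called at 12 h, with 8.11, 17.15 and 12.34 FPKM against 2.95, 2.15 and 1.7 FPKM (2.01 ± 0.29, adjusted p = 0.00482) and a larger difference of 3.64 ± 0.29 at time 0.

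In 4 cases a gene higher in the tolerant root and a gene lower in it had the same best protein match, and in each case one member of the pair was on an unplaced scaffold. Reticulon-like protein B2, which bends membranes of the endoplasmic reticulum, had a copy on a scaffold (emOS168.429) at 60.04, 144.05 and 133.18 FPKM in the tolerant and 0.01, 0 and 0.1 FPKM in the sensitive root at 12 h. Its copy on chromosome 10 (emOS126.73, 16123223 to 16127305) had 51.03, 16.11 and 13.7 FPKM in the tolerant and 119.25, 99.14 and 87.08 FPKM in the sensitive root. The copies differed by 6.68 ± 0.27 and -2.11 ± 0.37, while the sum of both was 139 ± 25.4 FPKM (SD) in the tolerant and 102 ± 16.2 FPKM in the sensitive root, a log2 ratio of 0.44.

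Non-symbiotic hemoglobin 1, which binds oxygen tightly and removes nitric oxide in roots short of oxygen, showed the same arrangement. The chromosome 9 copy (emFS1.16, 43091686 to 43092741) had 31.64, 45.63 and 43.81 FPKM in the tolerant and 0.31, 1.1 and 0.73 FPKM in the sensitive root (4.60 ± 0.24, adjusted p = 3.27e-06). The scaffold copy (emFS1.587) had 29.27, 3.62 and 2.94 FPKM against 40.55, 88.91 and 90.44 FPKM (-3.09 ± 0.66, adjusted p = 0.0378), and -4.03 without tolerant 12 h replicate 1. Summed, the pair had 52.3 ± 7.56 FPKM in the tolerant and 74.0 ± 28.7 FPKM in the sensitive root at 12 h, and 196 ± 44.7 against 279 ± 36.2 FPKM at time 0. The vacuolar aquaporin TIP2-2 was less steady: emOS76.31_emOS76.32 had 6.2, 167.05 and 119.7 FPKM against 2.03, 0.44 and 0.54 FPKM, and emOS126.4 had 1.55, 7.17 and 5.95 FPKM against 51.42, 12.6 and 28.69 FPKM. Only 1 of the 12 fits that left out a library kept the call of emOS126.4, and the log2 ratio of the TIP2-2 sums was 1.02. The fourth pair, unnamed proteins emOS168.431 and emOS126.65, had a log2 ratio of sums of -0.08. Whether reads of one copy were assigned to the other was not tested, and differences of the single copies are therefore uncertain as measures of the gene's total RNA.

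Of the 98 genes, 3 also had a called change in the size of the difference. A thioredoxin (emOS146.54, chromosome 6, 44010468 to 44018751), a small protein that reduces disulfides, had 5.66, 7.32 and 7.68 FPKM in the tolerant root at time 0 and 89.28, 42.77 and 25.83 FPKM at 12 h, and was listed at 0 in all 6 sensitive libraries. Every tolerant library at 12 h was above every one at time 0. The sterol enzyme obtusifoliol 14-alpha demethylase (emFS12.202) was listed at 0 in all 6 tolerant libraries and had 66.05, 69.07 and 58.01 FPKM at time 0 and 16.45, 14.98 and 29.78 FPKM at 12 h in the sensitive root. It fell by 1.67 on the log2 scale in the sensitive root. The change of its accession difference was not called without tolerant 12 h replicate 1 (adjusted p = 0.0557). The RPP13-like resistance gene emOS101.119 had 20.8, 18.42 and 18.27 FPKM at time 0 and 2.93, 3.17 and 4.23 FPKM at 12 h in the sensitive root, against at most 0.61 FPKM in the tolerant root at both times. Its difference at 12 h was -1.70 ± 0.21 (adjusted p = 0.00212) and fell under the fold set for a DEG without tolerant 12 h replicate 1 (-1.48).

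The gene that reversed was a dirigent protein 21 match (emFS6.303, chromosome 6, 1864697 to 1866419). Dirigent proteins steer the coupling of lignin-type precursors in the wall. In the tolerant root it had 83.7, 131.38 and 114.37 FPKM at time 0 and 0.83, 5.57 and 6.98 FPKM at 12 h, and in the sensitive root 20.88, 21.01 and 17.57 FPKM at time 0 and 93.62, 15.81 and 64.23 FPKM at 12 h. The tolerant libraries were above the sensitive ones at time 0 (2.39 ± 0.64) and below them at 12 h (-3.36 ± 0.64, adjusted p = 0.0236), a change of -5.75 ± 0.91 (adjusted p = 0.0216). It fell in the tolerant root by 4.57 on the log2 scale, and in the sensitive root 12 h minus time 0 was 1.18 ± 0.64 (adjusted p = 0.163). The reversal was called in 3 of the 12 fits that left out a library, the one without tolerant 12 h replicate 1 among them.

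The 5 genes seen only at 12 h and lower in the tolerant root included LEA genes of dehydrating cells. A gene with an LEA group 1 domain (emFS24.628, chromosome 3, 1031694 to 1032515) was at 0.25 FPKM or less in all 6 libraries at time 0. At 12 h it had 14.48, 11.12 and 10.87 FPKM in the tolerant root and 107.04, 112.55 and 85.41 FPKM in the sensitive root. It rose in both accessions, by 3.57 ± 0.16 in the tolerant and 6.51 ± 0.16 in the sensitive root, and the difference of -2.96 ± 0.16 at 12 h (adjusted p = 3.88e-06) followed -0.03 ± 0.16 at time 0. The change was called in all 12 fits that left out a library, with adjusted p between 8.99e-04 and 0.0108.

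The second LEA gene, Lea14-A (emFS24.723, chromosome 3, 311608 to 312431), went from 0.06 FPKM or less in every library at time 0 to 2.98, 1.09 and 1.13 FPKM in the tolerant and 18.43, 7.27 and 19.8 FPKM in the sensitive root at 12 h. The tolerant libraries were all below the sensitive ones (-2.52 ± 0.35, adjusted p = 0.00361). Its change of -2.52 ± 0.49 had an adjusted p of 0.0403 and stayed called in 2 of the 12 fits that left out a library, with adjusted p up to 0.131. The unnamed gene emOS63.26, on an unplaced scaffold and with a domain of a mitochondrial NADH dehydrogenase subunit, had 14.67, 6.69 and 4.2 FPKM against 53.55, 81.26 and 50.06 FPKM at 12 h (-2.84 ± 0.37, adjusted p = 0.00277). At time 0 the order was the other way, at 7.13 ± 2.17 FPKM (SD) against 2.04 ± 0.444 FPKM (1.39 ± 0.37, adjusted p = 0.0376), under the fold set for a DEG.

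The other 4 genes seen only at 12 h each had a called change from time 0 in one accession. Berberine bridge enzyme-like 27 (emOS168.276), of a family of flavin oxidases, was at 0.38 FPKM or less in all libraries at time 0, then at 0.41, 0.45 and 0.49 FPKM in the tolerant and 4.51, 7.22 and 3.19 FPKM in the sensitive root (-1.99 ± 0.22, adjusted p = 9.25e-04), and rose in the sensitive root by 2.41 ± 0.22. The NEP-interacting protein 1 match (emOS156.99) fell in the tolerant root from 44.62, 31.46 and 35.1 FPKM to 7.55, 4.15 and 12.68 FPKM, and had 26.29, 15.25 and 22.87 FPKM and then 29.49, 30.82 and 49.74 FPKM in the sensitive root. DIR1 (emOS63.52), in Arabidopsis a lipid-transfer protein of systemic resistance, was higher in the tolerant root at 19.15, 21.1 and 12.51 FPKM against 0.8, 4.11 and 0.67 FPKM (2.87 ± 0.44, adjusted p = 0.00713), after 25.04, 27.83 and 30.15 FPKM against 73.79, 32.9 and 30.64 FPKM at time 0. It fell by 4.12 on the log2 scale in the sensitive root. The change of its accession difference was not called without tolerant 12 h replicate 1 (adjusted p = 0.0599). A second DIR1 match (emOS63.54, chromosome 2, 36948140 to 36948766) lies close to it (36952918 to 36953612). That match was also a DEG higher in the tolerant root at 12 h, but was not among the 7. Whether the DIR1 matches share reads was not tested. SULFUR DEFICIENCY-INDUCED 2 (emOS130.141), named for its response to low sulfur in Arabidopsis, rose in the tolerant root from 7.55, 9.21 and 9.83 FPKM to 48.45, 24.78 and 36.47 FPKM. In the sensitive root it had 26.23, 24.38 and 27.31 FPKM and then 19.92, 6.66 and 12.13 FPKM, and the 12 h difference of 1.5 ± 0.33 (adjusted p = 0.0411) was not called without that library (1.28, adjusted p = 0.0666). Only emFS24.628 and emOS63.26 of the 7 had a change of the accession difference called whichever library was left out. Without tolerant 12 h replicate 1, 5 of the 7 kept their class.

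**Figure D3:**
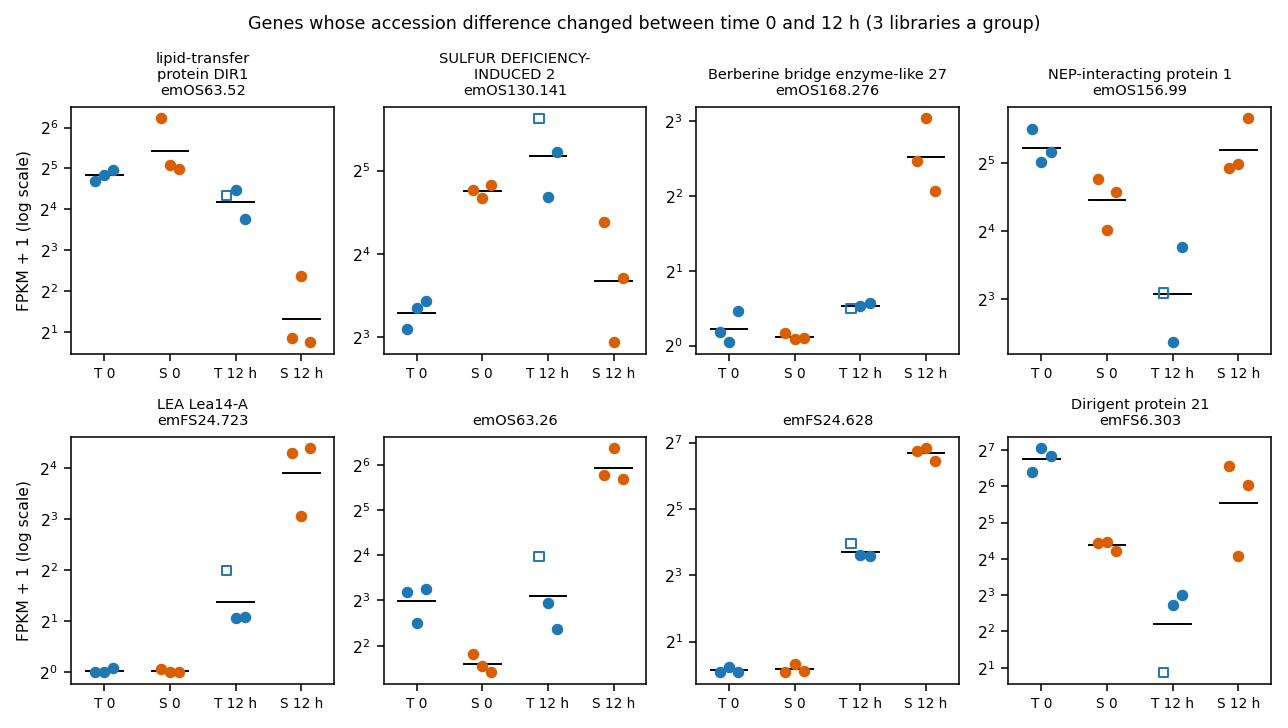
FPKM + 1 (log2 axis) in each root library for the 7 genes seen only at 12 h and for the dirigent protein 21 match that reversed, with a circle for each library, an open square for tolerant 12 h replicate 1, and bars at the group means of the log2 values. The gene emFS24.628 has 10.87 to 14.48 FPKM in the tolerant and 85.41 to 112.55 FPKM in the sensitive root at 12 h, and 0.25 FPKM or less at time 0.

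The 44 DEGs at 12 h that could not be sorted were mostly of like direction at time 0: 36 had the same sign, 16 had a difference of 1 or more in the same direction, and 16 were under 0.5 in size. The dehydration genes among them resembled the LEA genes. Dehydrin DHN3 (emFS9.217, chromosome 9, 35321579 to 35322640) was at 0.61 FPKM or less at time 0 and at 38.77, 21.48 and 22.53 FPKM in the tolerant and 324.79, 63.14 and 92.12 FPKM in the sensitive root at 12 h. The groups did not overlap, but the sensitive libraries spread widely, the difference was -2.18 ± 0.48 (adjusted p = 0.0443) and the change was not called (-2.74 ± 0.68, adjusted p = 0.0977). DHN3 kept its 12 h call in 2 of the 12 fits that left out a library. A low-temperature-induced 65 kDa protein (emOS43.458), whose Arabidopsis relative answers to abscisic acid, had 10.74, 9.72 and 6.16 FPKM against 60.09, 19.51 and 28.13 FPKM (-1.78 ± 0.34, adjusted p = 0.0237). A translocator protein homolog (emOS114.536), whose Arabidopsis relative is induced by abscisic acid, had 2.86, 1.58 and 1.27 FPKM against 37.93, 5.83 and 15.67 FPKM (-2.54 ± 0.49, adjusted p = 0.0236). These 2 genes were picked after their values were seen.

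Of the 40 tested genes of the abscisic acid and dehydration list, 2 were lower at 12 h and none higher (0.324% and 0.391% of all genes), against 1 higher and 2 lower at time 0. At an unadjusted p under 0.05 in the limma fit 11 were lower and 2 higher. Of all 20976 genes, 3110 passed that level at 12 h, a count not split by direction. The median difference was -0.12 at 12 h and 0.00 at time 0, and in the fit without tolerant 12 h replicate 1 it was 0.04, with 1 higher and 3 lower. From time 0 to 12 h, 8 members rose and 2 fell in the tolerant root (background 4.95% and 6.24% of all genes), and 13 rose and 3 fell in the sensitive root (5.94% and 6.01%). Proline and ornithine genes, which make a compatible solute, had no DEG at 12 h among 10, with 3 rising in the tolerant and 4 in the sensitive root.

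Single nitrate carriers were lower in the tolerant root at 12 h. Of 97 nitrogen uptake and assimilation genes 4 were lower and none higher, where 0.324% of all genes were lower and 0.391% higher. These are NPF6.3, which was already lower at time 0, and the 3 carriers below. The list median was -0.14, and 0.00 in the fit without tolerant 12 h replicate 1, against 4 higher and 4 lower and a median of 0.01 at time 0. The NRT2.2 matches, high-affinity nitrate carriers, lie in tandem on chromosome 4 and may share reads. One of them (emOS79.101, 47324918 to 47326753) had 281.41, 414.65 and 448.14 FPKM in the tolerant and 464.47, 230.04 and 404.51 FPKM in the sensitive root at time 0, with groups that overlapped. At 12 h it had 7.65, 14.17 and 15.64 FPKM against 41.33, 79.22 and 104.79 FPKM (-2.45 ± 0.39, adjusted p = 0.00902), with no overlap. It fell by 4.85 on the log2 scale in the tolerant and by 2.31 in the sensitive root, and the change between accessions was not called (adjusted p = 0.0604).

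The second copy, emOS79.107 (47302249 to 47304221), had 10.57, 14.04 and 12.85 FPKM against 37.6, 99.09 and 108.84 FPKM at 12 h (-2.49 ± 0.38, adjusted p = 0.00709), after 365 ± 71.0 against 441 ± 142 FPKM (SD) at time 0. NRT2.3 (emFS18.927) had 69.53, 79.65 and 77.3 FPKM against 167.06, 253.05 and 377.37 FPKM (-1.73 ± 0.30, adjusted p = 0.0148), after -0.68 ± 0.30 at time 0. These carriers were also the 3 DEGs at 12 h among the 19 root markers tested, whose median difference was -0.52 at 12 h, -0.50 without tolerant 12 h replicate 1 and 0.05 at time 0. At an unadjusted p under 0.05 in the limma fit, 5 of the 19 were lower and none higher. Of all 20976 genes, 3110 passed that level at 12 h in either direction. The markers other than nitrate carriers summed to 341 to 417 FPKM in the tolerant and 374 to 589 FPKM in the sensitive libraries at 12 h. These ranges overlapped, and the part of the markers in the lower carrier values was not tested. Acid phosphatase 1 (emFS26.272), which frees phosphate and was picked after its values were seen, had 1.39, 11.31 and 12.22 FPKM against 55.95, 31.97 and 50.33 FPKM (-2.65 ± 0.55, adjusted p = 0.0342), and without tolerant 12 h replicate 1 its change was called (-2.37, adjusted p = 0.0279). The deoxymugineic acid dioxygenase match (emOS146.155), which in barley finishes an iron-binding root exudate, had 2.9, 8.01 and 7.06 FPKM against 13.25, 23.18 and 51.69 FPKM (-2.0 ± 0.43, adjusted p = 0.0377), a call lost without that library (adjusted p = 0.0541).

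**Figure D4:**
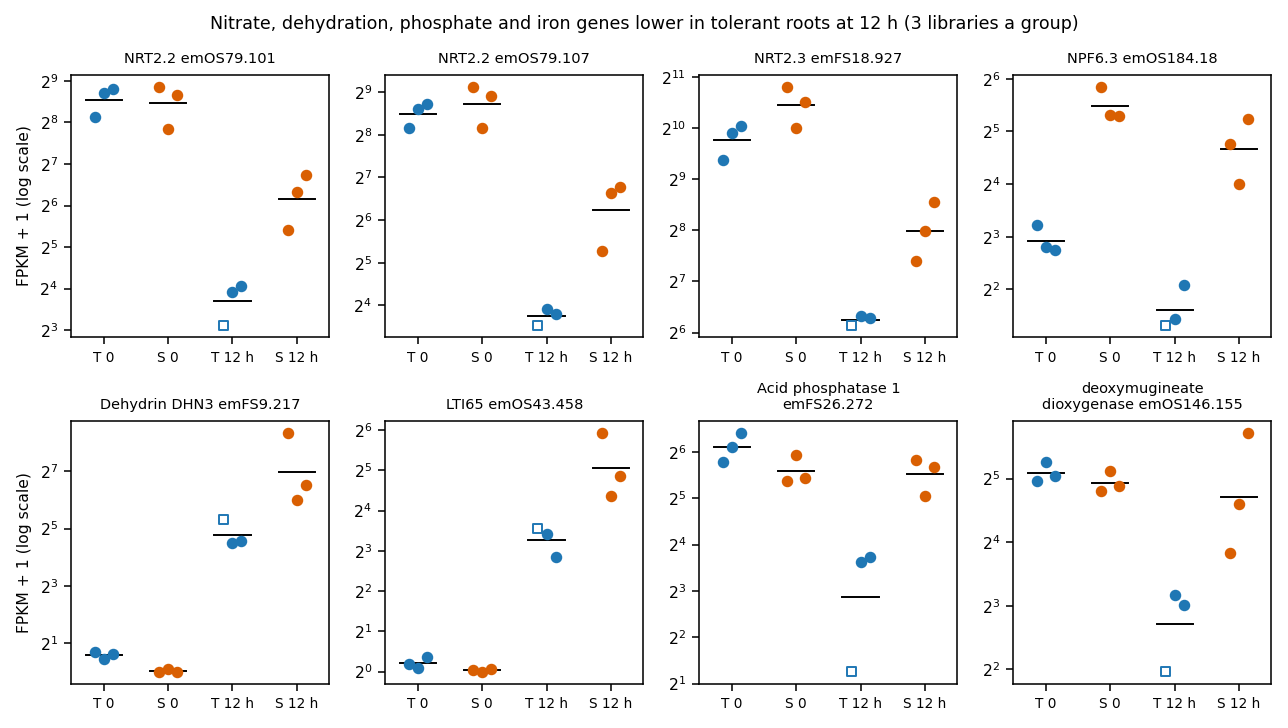
FPKM + 1 (log2 axis) in each root library for nitrate carriers, dehydration genes, acid phosphatase 1 and the deoxymugineic acid dioxygenase match, with a circle for each library, an open square for tolerant 12 h replicate 1, and bars at the group means of the log2 values. The NRT2.2 match emOS79.101 has 7.65 to 15.64 FPKM in the tolerant and 41.33 to 104.79 FPKM in the sensitive root at 12 h, and overlapping groups at time 0.

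The next 4 genes are among the 21 unsorted ones higher in the tolerant root at 12 h. Of 55 glutathione S-transferases, enzymes that join glutathione to reactive compounds, 2 were higher and none lower (0.391% and 0.324% of all genes), and 3 were higher and 1 lower in the fit without tolerant 12 h replicate 1. GSm (emOS99.596) had 915.92, 312.91 and 348.58 FPKM against 122.77, 78.09 and 159.39 FPKM (2.00 ± 0.37, adjusted p = 0.0203), after 57.1 ± 2.14 against 20.6 ± 2.81 FPKM (SD) at time 0. It rose in both accessions, by 3.00 in the tolerant and 2.44 in the sensitive root, and replicate 1 was the highest tolerant library. GSTF1 (emOS105.335) had 347.76, 313.9 and 316.52 FPKM against 94.12, 73.17 and 164.4 FPKM (1.63 ± 0.24, adjusted p = 0.00586), after 1.15 ± 0.24 at time 0.

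AIL5 (emOS36.571), an AP2 factor of growing root and shoot tips, had 6.93, 6.99 and 5.12 FPKM against 0.56, 0.5 and 0.31 FPKM (2.33 ± 0.46, adjusted p = 0.028). At time 0 it had 4.92, 0.55 and 6.52 FPKM in the tolerant and 6.04, 5.61 and 5.56 FPKM in the sensitive root, where it fell by 2.21 by 12 h. A small heat shock protein (emFS24.66), a chaperone, was at 0.14 FPKM or less at time 0 and had 1.63, 5.08 and 7.07 FPKM against 0.53, 0.17 and 0.12 FPKM at 12 h (2.00 ± 0.33, adjusted p = 0.0119). Without tolerant 12 h replicate 1 this gene did not pass the filter on low values.

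None of the 85 tested genes of sodium, potassium and proton transport was a DEG at 12 h, against 3 higher and 2 lower at time 0, and the list's median difference was -0.04. In the limma fit 2 of the 85 were higher and 9 lower at an unadjusted p under 0.05. Of all 20976 genes, 3110 passed that level at 12 h in either direction. In the fit without tolerant 12 h replicate 1, 1 of the 85 was a DEG in each direction. All tested sodium/proton exchangers and HKT carriers are described next, whatever their values. The exchanger 7 match (emOS93.13), known in Arabidopsis as the plasma membrane sodium/proton exchanger SOS1, had 227.5, 238.91 and 197.77 FPKM in the tolerant and 244.36, 325.58 and 229.51 FPKM in the sensitive root at 12 h (-0.25 ± 0.16, adjusted p = 0.535). The 3 matches to the vacuolar exchanger 2 (emFS4.2179, emOS114.490 and emOS167.60) differed by 0.02 ± 0.27, -0.03 ± 0.34 and 0.47 ± 0.31 (-0.28, 0.35 and 0.02 without tolerant 12 h replicate 1), and the endosomal exchanger 6 match (emOS58.142) by -0.06 ± 0.11.

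The HKT8 match (emOS120.239), whose rice relative withdraws sodium from the xylem, had 11.72, 19.96 and 15.7 FPKM in the tolerant and 15.86, 17.94 and 11.9 FPKM in the sensitive root at time 0. At 12 h it was listed at 0.03, 0.02 and 0 FPKM and at 0 in all 3 sensitive libraries. It fell by 4.02 in the tolerant and 4.0 in the sensitive root on the log2(FPKM + 1) scale, and the accessions differed by 0.02 ± 0.20 at 12 h. HKT2 (emFS4.55) differed by -1.28 ± 0.31 at time 0 (adjusted p = 0.0237) and by 0.00 ± 0.31 at 12 h, and rose in the tolerant root by 1.51 ± 0.31. HKT7 (emOS140.194) and HKT4 (emOS140.195) differed by -0.18 ± 0.20 and -0.57 ± 0.48 at 12 h. HKT4 was listed at 0 FPKM in tolerant 12 h replicate 1 and had 3.73 and 3.52 FPKM in the others, and its difference was 0.16 without that library.

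The 35 gene lists otherwise held few DEGs at 12 h. One higher and 1 lower gene were counted among 33 aquaporins, 47 hypoxia genes and 97 auxin genes, which are the TIP2-2, hemoglobin and IAA21 and auxin response factor genes above. One gene was lower among 45 iron and manganese genes and among 101 phenylpropanoid and lignin genes, and 1 higher among 92 ERF and DREB factors and 71 heat shock genes. In the fit without tolerant 12 h replicate 1 there were 3 higher and 2 lower auxin genes. It had 2 higher and 1 lower heat shock genes, and 1 higher and no lower gene in each of the aquaporin and the iron and manganese lists. Antioxidant enzymes (45 genes), class III peroxidases (71), flavonoid genes (61), O-methyltransferases (33), suberin and Casparian strip genes (37), membrane lipid genes (91), polyamine genes (22), amino acid transporters (44), phosphate genes (48), compatible solute genes (32), WRKY (77), NAC (63) and MYB factors (113), jasmonate and ethylene genes (58), receptor kinases (443), protease inhibitors (31), clock genes (19), ribosomal proteins (191) and cell wall loosening genes (55) had none. In the fit without tolerant 12 h replicate 1, receptor kinases had 2 higher and 8 lower DEGs, class III peroxidases and suberin and Casparian strip genes each had 2 higher. Phosphate and compatible solute genes each had 2 lower, and NAC factors had 1 in each direction. In that fit 1 higher was counted in each of the flavonoid, MYB and cell wall loosening lists and 1 lower in each of antioxidant enzymes and ribosomal proteins. With all libraries, these lists with none were also counted at an unadjusted p under 0.05 in the limma fit. They had up to 17 genes higher and 39 lower, both among the receptor kinases, apart from the ribosomal proteins. Of all 20976 genes, 3110 passed that level at 12 h in either direction. Of the 191 ribosomal protein genes, which make the cytosolic ribosome, 94 were higher and 2 lower at that level, 175 had a positive difference, and the median was 0.35 at 12 h and 0.11 at time 0. Under median-ratio scaling and scaling to a common sum the median was 0.33. In the fit without tolerant 12 h replicate 1, 37 were higher and 5 lower at that level, and without sensitive 12 h replicates 1, 2 and 3 there were 152, 42 and 41 higher, so the count moved with single libraries while the median stayed between 0.23 and 0.50. These small differences share their libraries and were not DEGs.

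The larger part of the time 0 differences was not called at 12 h. Of the 870 DEGs at time 0, 121 were not DEGs at 12 h and had a called change of the difference, 96 of them higher and 25 lower in the tolerant root at time 0, and 650 could not be sorted. Over the 121 genes the median size of the difference was 2.14 at time 0 and 0.27 at 12 h, which the rule that chose them largely sets. Of the 96 higher genes, 74 fell in the tolerant root and 17 rose in the sensitive root by 12 h (6.24% and 5.94% of all genes). Of the 25 lower genes, 21 fell in the sensitive root and 2 rose in the tolerant root (6.01% and 4.95% of all genes). The same rule favours such falls and rises. Without tolerant 12 h replicate 1 there were 72 such genes (58 higher, 14 lower), and 7 of the 121 had their change called whichever library was left out.

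Genes of the growing wall were among them. Of 55 cell wall loosening genes, expansins and xyloglucan enzymes, 13 were higher and none lower in the tolerant root at time 0, against 2.36% of all genes higher, and none was called at 12 h. The list's median difference was 1.25 at time 0 and -0.15 at 12 h, where over all genes it was 0.01 and 0.00. In the tolerant root 18 of the 55 fell by 12 h and 2 rose (6.24% and 4.95% of all genes). In the sensitive root 2 fell and 7 rose (6.01% and 5.94% of all genes). The time 0 count of 13 ranged from 2 without tolerant time 0 replicate 3 to 17 without tolerant 12 h replicate 1, with a median difference between 1.13 and 1.4 in all of these fits. A change of the difference away from the tolerant root was called at 7 genes (0.548% of all genes). None was called in the fits without tolerant time 0 replicates 1 or 3, sensitive time 0 replicate 3 or tolerant 12 h replicate 2.

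The members named in the next 3 paragraphs were picked after their values were seen. Expansin-A24 (emOS79.1247) had 22.6, 13.28 and 20.73 FPKM in the tolerant and 2.34, 2.32 and 2.19 FPKM in the sensitive root at time 0, and 1.66, 1.11 and 0.8 FPKM against 2.0, 0.33 and 1.76 FPKM at 12 h. The groups were apart at time 0 (2.56 ± 0.31, adjusted p = 7.75e-04) and overlapped at 12 h (-0.04 ± 0.31, adjusted p = 0.977). Expansin-A31 (emOS37.56) had 35.94, 19.63 and 30.46 FPKM against 2.61, 6.22 and 4.13 FPKM at time 0, and at most 0.37 and 1.38 FPKM at 12 h.

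Class III peroxidases, which form and cross-link wall phenolics, had 12 of 71 genes higher and none lower at time 0 and none called at 12 h, with medians of 0.83 and 0.02. Peroxidase 7 (emOS91.1047) had 38.67, 20.43 and 12.6 FPKM against 1.22, 1.5 and 1.34 FPKM at time 0 and at most 0.04 FPKM in the tolerant root at 12 h, a change of -3.67 ± 0.48 (adjusted p = 0.0105). Peroxidase 57 (emOS55.1865) had 34.67, 19.7 and 9.83 FPKM against 0.85, 1.35 and 1.42 FPKM at time 0 and was listed at 0 in all 3 tolerant libraries at 12 h. Casparian strip membrane protein 2 (emOS163.302), which places the water-tight band of the endodermis, had 19.73, 8.51 and 17.93 FPKM against 1.53, 4.35 and 1.89 FPKM at time 0, and 5.4, 2.73 and 3.6 FPKM against 8.81, 5.48 and 7.33 FPKM at 12 h. It was 1 of 5 suberin and Casparian strip genes of 37 higher at time 0 (2.36% of all genes), a count of 2 without tolerant time 0 replicate 1 and of 10 without tolerant 12 h replicate 1. Of 101 phenylpropanoid and lignin genes 13 were higher and 3 lower at time 0, and without tolerant time 0 replicates 1 and 3 there were 6 and 7 higher. Of 33 O-methyltransferases 6 were higher, and 1 without any one of the tolerant time 0 replicates.

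Other roles were represented too. Cation/H(+) antiporter 19 (emOS59.69), of a family of potassium/proton exchangers, had 60.33, 53.88 and 67.87 FPKM in the tolerant and 10.64, 13.81 and 10.17 FPKM in the sensitive root at time 0, and overlapping values of 17.44, 38.53 and 26.87 FPKM and 25.17, 32.23 and 56.25 FPKM at 12 h. It rose in the sensitive root by 1.56 ± 0.31. CCA1 (emOS184.45), a morning factor of the clock, had 0.94, 1.44 and 1.12 FPKM in the tolerant and 7.53, 7.55 and 5.98 FPKM in the sensitive root at time 0 (-1.89 ± 0.24, adjusted p = 9.37e-04) and 4.36, 2.77 and 2.07 FPKM against 1.31, 2.3 and 1.11 FPKM at 12 h (0.65 ± 0.24, adjusted p = 0.208). Of 19 clock genes it was the one called at time 0. Of 31 protease inhibitors 11 were lower and 2 higher in the tolerant root at time 0, against 1.79% and 2.36% of all genes, and none was called at 12 h. The count of 11 fell to 7 without sensitive time 0 replicates 2 or 3. A run of 3 of them lies on one stretch of chromosome 4, of which emOS79.219 was listed at 0 in all 3 tolerant libraries and had 9.99, 137.38 and 115.03 FPKM in the sensitive root at time 0, and was at 1 FPKM or less in every library at 12 h. Sensitive time 0 replicate 1 was far below its replicates for each of the 3.

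**Figure D5:**
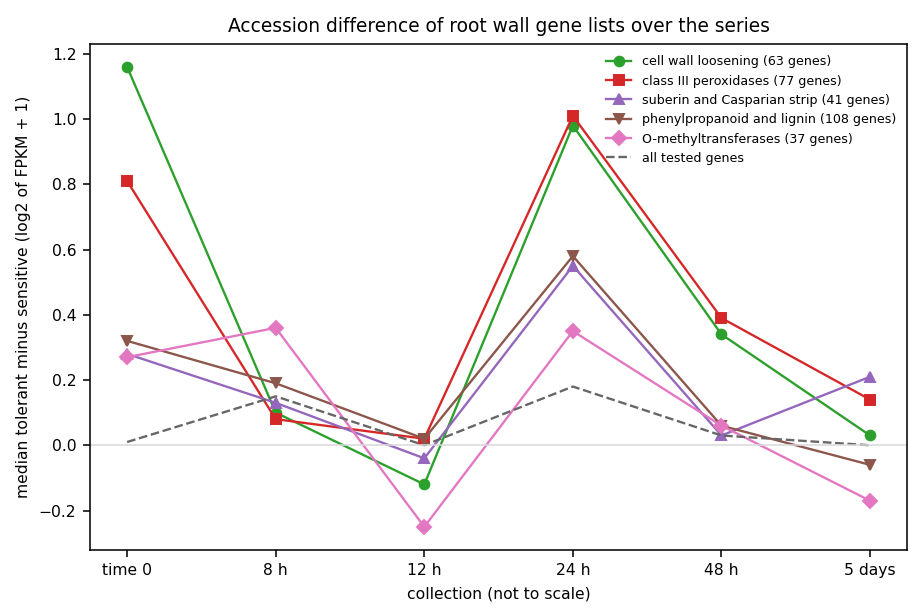
Median tolerant minus sensitive difference in log2(FPKM + 1) of wall gene lists and of all genes at each time of the series (collection times in order on the x axis, not to scale), from a fit of all 36 root libraries. The median of cell wall loosening genes is 1.16 at time 0, 0.10 at 8 h, -0.12 at 12 h, 0.98 at 24 h, 0.34 at 48 h and 0.03 at 5 days.

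The same genes were read in the other root libraries in a fit of all 36 (22194 genes tested), in which each time has its own libraries. In that fit 2.47% of genes were called at 8 h, 6.08% at 24 h, 1.82% at 48 h and 2.42% at 5 days. Of the 98 genes that differed at time 0 and 12 h, 75 were called in the same direction at 8 h, 94 at 24 h, 94 at 48 h and 92 at 5 days, and 65 at all of these times (0.599% of all genes). All 98 kept their sign at each time. In leaves at 12 h 51 of the 95 tested were called in the same direction, against 2.16% of all genes. Tolerant 8 h replicate 1 also had a low median over the tolerant-type genes, 3.78 FPKM, with 7 of 13 sensitive-type genes at 1 FPKM or more.

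The 7 genes seen only at 12 h were called in the same direction in 0 cases at 8 h, 3 at 24 h, 3 at 48 h and 2 at 5 days, and none of the 6 tested in leaves at 12 h was called. The LEA gene emFS24.628 had 45.3 ± 14.5 FPKM (SD) in the tolerant and 58.3 ± 34.2 FPKM in the sensitive root at 8 h (-0.23, adjusted p = 0.845), and 15.1 ± 7.71 against 334 ± 77.8 FPKM at 24 h (-4.46, adjusted p = 4.72e-06). Lea14-A (emFS24.723) had 22.6 ± 5.26 against 6.95 ± 7.16 FPKM at 8 h (1.92, adjusted p = 0.148) and 2.28 ± 1.53 against 220 ± 50.8 FPKM at 24 h (-6.17, adjusted p = 1.48e-05). Both genes were thus called lower in the tolerant root at 12 h and 24 h, and neither was called at 8 h.

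Dehydrin DHN3 (emFS9.217) changed sides between 8 h and 12 h. At 8 h it had 119 ± 47.3 FPKM (SD) in the tolerant and 19.0 ± 11.4 FPKM in the sensitive root (2.63, adjusted p = 0.0166), and at 24 h 56.2 ± 46.2 against 565 ± 121 FPKM (-3.57, adjusted p = 7.64e-04). The translocator protein homolog (emOS114.536) did likewise, at 25.7 ± 7.28 against 4.30 ± 5.33 FPKM at 8 h (2.81, adjusted p = 0.0387) and 4.71 ± 4.80 against 181 ± 36 FPKM at 24 h (-5.29, adjusted p = 1.42e-04). Of the 44 unsorted genes, 16 were called in the 12 h direction at 8 h and 2 in the opposite one, and 26, 21 and 18 in the 12 h direction at 24 h, 48 h and 5 days. NRT2.2 (emOS79.101) had 40.2 ± 3.47 against 16.1 ± 4.53 FPKM at 8 h (1.31, adjusted p = 0.133), 8.57 ± 3.82 against 374 ± 216 FPKM at 24 h (-5.13, adjusted p = 3.89e-07) and 26.9 ± 6.80 against 15.5 ± 7.21 FPKM at 5 days (0.82, adjusted p = 0.442).

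Cell wall loosening genes and class III peroxidases were again higher in the tolerant root at 24 h. In the fit of 36 libraries 19 of 63 cell wall loosening genes and 19 of 77 class III peroxidases were higher at 24 h, against 4.28% of all genes, with list medians of 0.98 and 1.01 where the median of all genes was 0.18. At 12 h the medians were -0.12 and 0.02 in the same fit. Among suberin and Casparian strip genes 2 of 41 were higher at 24 h and 0 lower. Among phenylpropanoid and lignin genes 10 of 108 were higher and 1 lower, and among O-methyltransferases 6 of 37 and 2. The rise was not particular to wall lists: 15 of 104 auxin genes were higher at 24 h and 1 lower. Of the 121 genes that differed at time 0 and not at 12 h, 11 were called in their time 0 direction at 24 h and 2 in the other, and 6, 4 and 14 in the time 0 direction at 8 h, 48 h and 5 days.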

How the data were processed

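Total RNA of roots and leaves was sequenced. The submitters' notes name Trimmomatic 0.32 and HISAT2 2.1.0, and the methods name DESeq2 for the authors' own tests. The sources used here do not give the genome build, the strand setting or the read number. The authors deposited one table of FPKM per gene, rounded to 2 decimals, with gene coordinates and protein matches, and the methods call the unit RPKM. Every value column was assigned to a sample through the labels, and 0 columns were left unassigned. Coordinates are those of the deposited gene models.

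The table holds no counts, so limma 3.58.1 (R 4.3.3) was fitted to log2(FPKM + 1) of 12 root libraries in 4 groups, with a mean-variance trend, two-sided moderated tests and Benjamini-Hochberg adjustment over the genes that reached 1 FPKM in 3 or more libraries. Fold changes on this scale understate the change of low genes. Thresholds were an adjusted p of 0.05 and a log2 difference of 1.5. Genes were named by rule: the 8 largest annotated differences a direction in the genes called at both times and in those called only at 12 h, and up to 4 DEGs a gene list, while other names are marked in the text. The genes, the 35 lists and the alternatives were chosen with earlier results of these data known. Tested on simulated data for the 12 h contrast, the fit recovered 88 of 100 genes changed by a log2 of 2 and 99 of 100 changed by 3. For the change of the difference it recovered 78 and 94 of 100. The simulation used independent noise with 1 spread per gene in all libraries and changed only genes with a mean log2 of 3 or more. It therefore does not show recovery for low genes or under the wider spread of the 12 h libraries. Alternatives changed the pseudocount, filter, scaling, fold, trend, libraries in the fit and replicate block, and left out each library. Counting intervals are therefore not given. No sequences are printed, and figures were drawn with matplotlib 3.10.9.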

Additional observations from a re-analysis of the deposited data

Results flagged for a closer look

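The accession difference changed between time 0 and 12 h by the test of that change at 11 of the DEGs at 12 h, each on the log2(FPKM + 1) scale and signed toward the tolerant root. Changes toward the tolerant root were 3.46 for DIR1 (emOS63.52), 2.96 for SULFUR DEFICIENCY-INDUCED 2 (emOS130.141), 2.59 for the thioredoxin (emOS146.54), 2.24 for the RPP13-like gene (emOS101.119) and 1.67 for obtusifoliol 14-alpha demethylase (emFS12.202). Changes away from it were -5.75 for dirigent protein 21 (emFS6.303), -4.23 for emOS63.26, -2.94 for emFS24.628, -2.90 for the NEP-interacting protein 1 match (emOS156.99), -2.52 for Lea14-A (emFS24.723) and -2.10 for berberine bridge enzyme-like 27 (emOS168.276).

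Of the 121 genes that differed at time 0 and not at 12 h, the 8 with the largest changes down and the 4 with the largest changes up among named genes are given. The changes down were -9.31 for a salt stress-induced protein (emOS163.179), -4.85 for a peptide/nitrate transporter match (emOS72.613), -3.67 for peroxidase 7 (emOS91.1047), -3.63 for endoglucanase 13 (emFS6.388), -3.49 for uclacyanin-2 (emOS91.1269), -3.45 for arabinogalactan protein 30 (emFS24.258), -3.42 for arabinogalactan peptide 16 (emOS79.1216) and -3.34 for peroxidase 57 (emOS55.1865). The changes up were 5.79, 5.58 and 4.53 for the protease inhibitors emOS79.219, emOS79.214 and emOS79.211 and 3.80 for an AAA-ATPase (emFS12.443).

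The salt stress-induced protein emOS163.179 had 124.0, 64.19 and 29.39 FPKM in the tolerant and 0.09, 0.23 and 0.06 FPKM in the sensitive root at time 0, and 0.53, 10.17 and 30.54 FPKM against 162.77, 12.69 and 349.86 FPKM at 12 h. Its groups overlapped at 12 h, and without tolerant 12 h replicate 1 its change was -8.10 (adjusted p = 0.0539). The changes of the 3 protease inhibitors were not called without that library either, with adjusted p of 0.0646, 0.0625 and 0.0544.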

How the results depend on the processing

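Beside the main 150 DEGs at 12 h, 870 at time 0, 157 of the change, 2346 and 2508 for 12 h minus time 0 in the tolerant and sensitive root, and 98, 7 and 44 genes present at time 0, seen only at 12 h and unsorted, a pseudocount of 0.1 gave 279 at 12 h, 62 of the change, 199 present and 73 unsorted. A pseudocount of 5 gave 60 at 12 h, 350 at time 0, 78 of the change, 1275 and 1263 for the 12 h minus time 0 contrasts, 32 present and 19 unsorted. A mean of at least 5 FPKM gave 72, 416 and 26, with 50 present, 4 only at 12 h and 18 unsorted. A fold threshold of 1 gave 309 at 12 h, 1484 at time 0, 4244 and 4369 for 12 h minus time 0, 188 present, 20 only at 12 h and 96 unsorted. All 36 root libraries in one fit gave 165 present and 2 only at 12 h, of which 1 was among the 7. The 6 libraries of 12 h alone gave 47 DEGs, 33 higher and 14 lower, where the main fit had 82 and 68. The 6 libraries of time 0 alone gave 1115. Scaling by median ratios or to a common sum, no filter and no trend kept each count within 1.5 times.

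Leaving out one library gave 106 DEGs at 12 h (without tolerant 12 h replicate 2) to 401 (without tolerant 12 h replicate 1) and 472 (without tolerant time 0 replicate 1) to 1047 (without tolerant 12 h replicate 1) at time 0. The change had 18 (without sensitive time 0 replicate 3) to 298 (without sensitive 12 h replicate 2), and 12 h minus time 0 had 2183 to 2602 in the tolerant and 2210 to 2601 in the sensitive root. The class present at time 0 had 69 to 253 genes, only at 12 h 2 (without tolerant time 0 replicate 1) to 23 (without sensitive 12 h replicate 2) and unsorted 32 to 131. The cause was not tested. Replicate numbers did not pair the libraries: same-numbered tolerant and sensitive libraries had correlations of deviations of 0.03, -0.19 and -0.01 at time 0 and -0.48, -0.24 and 0.29 at 12 h. With the replicate block 123 genes were DEGs at 12 h, 63 had a called change and 4 were seen only at 12 h. Over 46 results of named genes and 1030 values under alternatives, 753 kept their call, 277 lost it and 0 reversed. Of the 46 results, 7 kept their call under every alternative. Of 38 such results at 12 h, 20 kept their call whichever library was left out. Of all 150 DEGs at 12 h, 83 did so. At an unadjusted p under 0.05 there were 3110 genes at 12 h and 5256 at time 0.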

Other observations

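Without tolerant 12 h replicate 1, 16 genes were seen only at 12 h, 5 of them among the 7 above and 11 new. Names among the new ones, given after their values were seen, included a further LEA gene and the first enzyme of raffinose synthesis. LE25 (emOS103.16), an LEA protein of tomato, had 5.89 and 3.08 FPKM in the remaining tolerant libraries and 18.58, 16.98 and 16.59 FPKM in the sensitive ones at 12 h, a difference of -1.79 (adjusted p = 0.00134) against -1.48 with all libraries. Galactinol synthase 2 (emFS4.2045) had 3.76 and 4.0 FPKM against 14.46, 11.14 and 20.89 FPKM (-1.72, adjusted p = 0.00425). WUSCHEL-related homeobox 6 (emOS55.959) was higher, at 5.39 and 5.26 FPKM against 0.96, 1.08 and 1.31 FPKM (1.58, adjusted p = 1.44e-04). In the library left out these genes had 9.21, 10.69 and 1.77 FPKM, each nearer to the sensitive libraries than the other tolerant ones were. The choice of genes that were called only without that library largely sets this order.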
